A study of Mus musculus with 6 samples.

Results

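The clustered replication-dependent histone genes were followed in RAW264.7 cells, a macrophage-like line from mouse, after SKI-II or vehicle. Members were the rows of the count table whose GENCODE M21 symbol begins with Hist1 to Hist4 and names an H1, H2A, H2B, H3 or H4 gene, which gave 68 of the 49315 genes. They comprised 6 H1, 20 H2A, 17 H2B, 12 H3 and 13 H4 genes, and Hist1h2bh and Hist1h2bm, which the same rule covers in the annotation, were not analysed here. The wild-type cells had received 4 μg/mL of SKI-II, a thiazole phenol known as an inhibitor of sphingosine kinase, or DMSO for 24 h. Each treatment had 3 libraries of 1 cell line, and the labels do not say whether these came from separate cultures. The methods speak of biological replicates for the qPCR assay, whose treatment and extraction the RNA-seq followed, and state for all experiments that they were repeated independently. How this applies to the single libraries is not stated in the labels, and the p-values measure the spread between these libraries. The RNA was enriched on oligo(dT) beads before library construction, so that RNAs without a poly(A) tail were not the target of the measurement.

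Histones are the proteins around which DNA is wound, with H2A, H2B, H3 and H4 in the nucleosome core and H1 on the linker. The clustered genes are transcribed in S phase, when new DNA needs new histones, and most of their mRNAs end at a conserved stem-loop instead of a poly(A) tail. The stem-loop is bound by the protein encoded by Slbp, and cleavage after it needs the U7 small nuclear ribonucleoprotein. Some clustered genes also make longer, polyadenylated mRNAs, which are seen in cells that have stopped dividing. A count per gene does not tell a tailed mRNA from one without a tail that was carried over.

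The libraries held between 12495957 and 20050677 counts, of which the members took between 0.0112% and 0.0218%. The macrophage label was checked against 10 marker genes, all of which had enough counts for the test. With SKI-II 2 were higher and 4 lower, beside 18.4% and 19.7% of all tested genes. Fcgr1 rose by 2.17 and Cd14 by 1.41, and Mrc1 fell by 1.61 on the log2 scale (adjusted p = 1.56e-05, 0.000273 and 0.0210, edgeR). The summed level of the 10 ranged from 142300 to 207300 normalized counts with vehicle and from 91050 to 129100 under SKI-II, with 56.3% of it from Lyz2, and its part in the members' results was not tested. Of 12 markers of other cell types, 6 had no count in any library, and apart from S100a8, a neutrophil gene, no count of these markers exceeded 18. The summed level of the 12 markers ranged from 47.6 to 117.8 normalized counts with vehicle and from 47.0 to 125.0 in SKI-II. The RNA was measured in bulk, so fewer cells of one kind, such as cells in S phase, and less RNA per cell cannot be told apart.

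The 3′ stem-loop was looked for in the annotated transcripts, since it is the feature by which these mRNAs are processed. It lay after the stop codon in 44 of the 68 members, each time without a mismatch to the consensus, at a median of 31.5 bases from the stop codon and a range of 21 to 58. Of the 24 members without it, 17 have an annotation that ends within 50 bases of the stop codon, 3 are pseudogenes and 4 continue for more than 150 bases. The stem-loops of the tested members that have one are shown from GENCODE M21 transcripts, each with 5 flanking bases on either side, and the capitals mark the 16 bases of stem and loop.
Hist1h1c: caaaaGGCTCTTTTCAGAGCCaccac
Hist1h1d: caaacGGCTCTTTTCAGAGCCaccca
Hist1h2ae: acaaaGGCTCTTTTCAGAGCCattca
Hist3h2a: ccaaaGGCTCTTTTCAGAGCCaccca
Hist1h2be: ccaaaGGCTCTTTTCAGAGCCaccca
Hist1h2bg: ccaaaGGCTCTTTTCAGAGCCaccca
Hist2h3c2: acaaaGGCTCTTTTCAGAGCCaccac
Hist1h4h: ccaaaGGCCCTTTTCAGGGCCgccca
Hist1h4i: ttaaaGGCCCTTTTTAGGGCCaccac
Hist2h4: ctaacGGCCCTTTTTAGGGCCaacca
The core seen in Hist1h1c was also the most frequent one in H2A (10 of 11 members with a stem-loop), H2B (6 of 8) and H3 (5 of 9), and it was found in 3 of 4 H1 genes. None of the 12 H4 genes with a stem-loop had it, and 7 of them had the core shown for Hist1h4h. Hist2h2be and Hist1h2bc, which held most of the H2B counts, had no stem-loop in their annotated transcripts, which run for 2192 and 742 bases past the stop codon, the latter in a spliced transcript of 2 exons.

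The promoters of the members were searched for motifs of histone genes. RefSeq promoters, from 250 bases before to 50 bases after the start, were matched for 59 of the 68 members and searched on both strands. The letters CCAAT were present in all matched H1, H2A, H2B and H3 promoters, in 3 of 12 (25.0%) H4 promoters and in 37.4% of the 32851 promoters in the table. The octamer ATTTGCAT, the motif of the factor encoded by Pou2f1, was present in 41.2% of 17 H2A and 42.9% of 14 H2B promoters, in none of the H1, H3 and H4 promoters, and in 1.74% of all promoters. TATAAA was found in 59.3% of the members' promoters and in 13.6% of all. The 250 bases before the start of Hist1h2bg (GRCm38.p6, chr13:23571150-23571399, plus strand) are shown because its neighbour Hist1h2ae is transcribed the other way from the same stretch, and those of Hist1h1c (GRCm38.p6, chr13:23738557-23738806, plus strand) because this gene held most of the counts. Capitals mark the octamer, TATAAA and CCAAT or its reverse complement, none of which overlap.
Hist1h2bg: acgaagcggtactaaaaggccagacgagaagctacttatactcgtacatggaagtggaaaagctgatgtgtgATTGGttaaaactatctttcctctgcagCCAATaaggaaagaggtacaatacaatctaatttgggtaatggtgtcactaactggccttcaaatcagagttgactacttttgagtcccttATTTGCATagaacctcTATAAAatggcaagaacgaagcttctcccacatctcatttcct
Hist1h1c: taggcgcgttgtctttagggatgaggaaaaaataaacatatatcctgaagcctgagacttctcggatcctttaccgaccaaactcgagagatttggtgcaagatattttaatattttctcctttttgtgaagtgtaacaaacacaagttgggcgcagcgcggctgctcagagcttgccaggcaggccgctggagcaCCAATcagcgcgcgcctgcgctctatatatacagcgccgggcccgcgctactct
Such head-to-head H2A and H2B neighbours numbered 13 among the members, with 173 to 306 bases between the annotated starts.

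Few of these genes were measured deeply. Only 14 of the 68 members had enough counts to be tested, and 9 had no count in any library. Of all counts on the members, 86.9% fell on Hist1h1c, Hist2h2be and Hist1h2bc. The 26 members whose annotated transcript runs more than 150 bases past the stop codon held 94.1% of the members' counts and 11 of the 14 tested genes, and the 39 protein-coding members with a shorter end held 3.58% and 2 tested genes. Longer transcripts collect more counts, and per kilobase of exon the median level was 4.11 normalized counts in the first group and 3.18 in the second.

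Near-identical copies limit what a count can say about 1 member. In each tested member at least 35.7% of all stretches of 100 bases occur in no other annotated gene, while in 29 of the 68 members fewer than 50% do. Of the 9 members without a count, 5 (Hist2h2aa1, Hist2h2aa2, Hist2h2bb, Hist2h3b and Hist2h3c1) have no such stretch at all, so that 0 counts there do not show an absent mRNA. The treatment of reads that match several genes, and of their strand, is not stated in the sources used here. Without strand, the counts of the 23 members that share exon bases with an antisense gene cannot be told from those of that gene.

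Against the 38.0% of the 12274 tested genes that changed, 4 of the 14 tested members changed with SKI-II. A gene was called when its p from the quasi-likelihood test of edgeR, adjusted by Benjamini-Hochberg over all tested genes, was below 0.05. Hist2h2be, Hist1h2bc and Hist1h2ae fell and Hist1h2al rose, next to 19.7% of all tested genes that fell and 18.4% that rose. The filter asked for enough counts in 3 libraries, which 6 of the 14 reached in all libraries, 4 in all DMSO but not all SKI-II libraries and 2 the other way round, so the counts over these genes are a description. The median log2 fold change of the 14 was -0.27, and that of all tested genes was 0.004. All 4 changes also exceeded a log2 fold change of 1 in size, as did 8.28% of tested genes upward and 7.44% downward. Every SKI-II library lay below every DMSO library for 4 members and above for 2, and this was so for 25.5% and 24.8% of the tested genes.

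**Figure D1:**
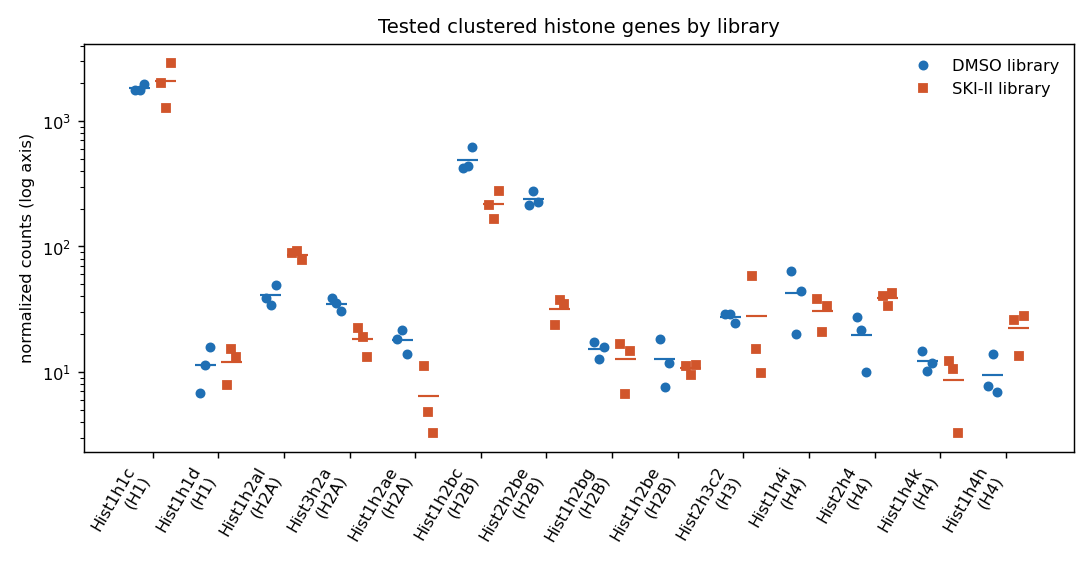
Normalized counts (log axis) of the 14 tested clustered histone genes, grouped by histone type; circles are the 3 DMSO libraries, squares the 3 SKI-II libraries and lines the group means. The groups are apart for Hist2h2be (213.7 to 278.0 against 23.5 to 37.2) and overlap for Hist1h1c, the gene with most counts.

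Among the H2B genes, Hist2h2be (chromosome 3, 96221119 to 96223738, a single exon) had the lowest fold change of the tested members. It was counted 220, 220 and 230 times in DMSO replicates 1, 2 and 3 and 21, 39 and 43 times in the SKI-II replicates. The 2 groups were far apart, with no SKI-II library above 43 counts and no DMSO library below 220. Normalized counts, which are counts scaled to the mean library, fell from 240 ± 33.8 to 31.9 ± 7.37 (SD, n = 3), a change of -2.89 in log2 (standard error, SE, 0.25, adjusted p = 3.0e-05, edgeR). Hist2h2be is one of the clustered genes known to make a polyadenylated mRNA, and every stretch of 100 bases of its transcript is its own.

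Hist1h2bc (chromosome 13, 23684199 to 23692908), which is likewise known for a polyadenylated form, had more counts and a smaller change. Its counts were 434, 344 and 630 in DMSO and 190, 173 and 341 in SKI-II. After scaling, the highest SKI-II library (277.8 normalized counts) lay under the lowest DMSO library (421.5). The level fell from 493 ± 113 to 219 ± 56.6 (SD, n = 3), a change of -1.17 in log2 (SE 0.23, adjusted p = 0.00304, edgeR).

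The other tested H2B genes, Hist1h2be and Hist1h2bg, were near the limit of the test. Hist1h2be (chromosome 13, 23583670 to 23621124) had 19, 6 and 12 counts with vehicle and 10, 10 and 14 with SKI-II, and Hist1h2bg (chromosome 13, 23571396 to 23572013) had 18, 10 and 16 against 15, 7 and 18. Their log2 fold changes were -0.26 and -0.28 (adjusted p = 0.679 and 0.648, edgeR), and the groups overlapped in both. Hist1h2be shares 496 exon bases with the H1 gene Hist1h1e on the same strand. Hist3h2ba, another member with a known polyadenylated form, had no count in any library.

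Of the 3 tested H2A genes, 1 fell and 1 rose. Hist1h2ae (chromosome 13, 23570517 to 23571220), the neighbour of Hist1h2bg on the promoter shown above, had 19, 17 and 14 counts with vehicle and 10, 5 and 4 with SKI-II. The groups did not overlap, but the counts are few, and the gene passed the filter through the DMSO libraries, where it is high, with 1 SKI-II library past it. It was not tested when each library had to hold 10 counts. The level fell from 17.9 ± 3.84 to 6.41 ± 4.21 normalized counts (SD, n = 3), a change of -1.52 in log2 (SE 0.51, adjusted p = 0.0398, edgeR). The call was lost without DMSO replicate 1 or 2 or SKI-II replicate 2 or 3, with adjusted p from 0.0797 to 0.139, and with DESeq2 (adjusted p = 0.0745), while without SKI-II replicate 1 the log2 fold change was -2.14. Its pair is the only head-to-head pair with both genes tested, and the difference between them was not tested.

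Hist3h2a (chromosome 11, 58954685 to 58956830), an H2A gene of the small Hist3 cluster with a known polyadenylated form, had 40, 28 and 31 counts with vehicle and 20, 20 and 16 with SKI-II. Every SKI-II library lay below every DMSO library, with 34.98 ± 4.09 and 18.2 ± 4.74 normalized counts (SD, n = 3), and the change of -0.96 in log2 (SE 0.35) missed the threshold with an adjusted p of 0.0526 in edgeR. It passed with limma-voom (adjusted p = 0.0475), with a minimum of 10 counts in each library (0.0345) and with the replicate block (0.0398), and missed the threshold in the other 10 alternatives, with adjusted p from 0.0542 to 0.152. Hist3h2a shares 708 exon bases with Trim17 on the same strand.

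Hist1h2al was the member that rose. It is annotated as a processed pseudogene without a coding sequence, lies at chromosome 13, 51202727 to 51203065, outside the stretch that holds the other Hist1 genes, and shares 109 exon bases with an antisense gene. Its counts were 40, 27 and 50 in DMSO and 79, 97 and 95 in SKI-II. All SKI-II libraries lay above all DMSO libraries, and the level rose from 40.8 ± 7.9 to 86.1 ± 7.83 normalized counts (SD, n = 3), a change of 1.07 in log2 (SE 0.26, adjusted p = 0.0103, edgeR). Without DMSO replicate 2 the adjusted p was 0.0523. Without Hist1h2al the summed H2A level went from 99.3 ± 24.7 to 42.7 ± 10.3 (SD, n = 3), a log2 ratio of -1.22, and with it from 140 ± 19.5 to 129 ± 16.2, a log2 ratio of -0.12.

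**Figure D2:**
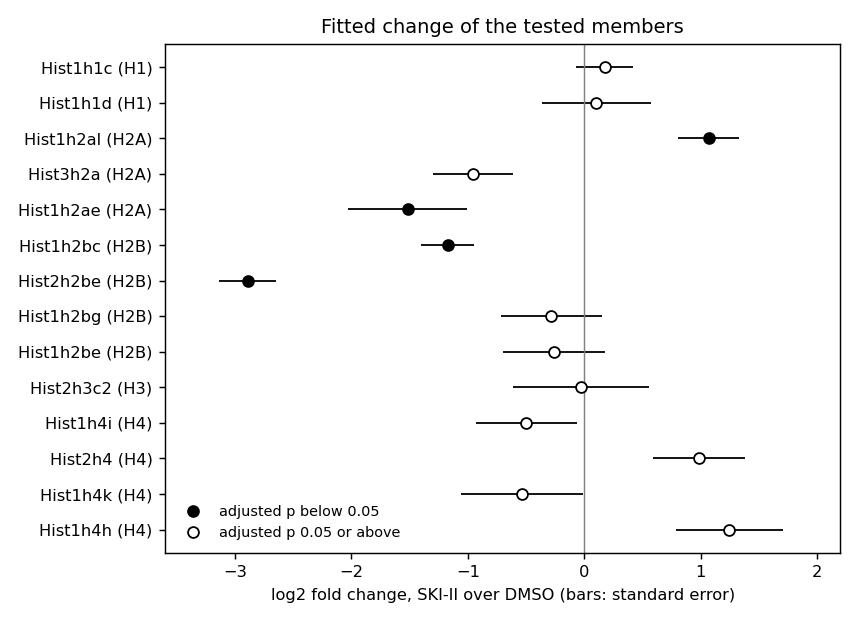
Log2 fold change of SKI-II over DMSO with its standard error for the 14 tested members, ordered by histone type; filled points have an adjusted p below 0.05. Hist2h2be lies at -2.89, Hist1h2al at 1.07, and the standard errors of the H1 and H3 genes span 0.

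Neither tested H1 gene was called. Hist1h1c (chromosome 13, 23738808 to 23740367), which encodes a linker histone and is known for a polyadenylated form, was counted 1814, 1398 and 2000 times in DMSO and 1799, 1330 and 3594 times in SKI-II. The SKI-II libraries lay on both sides of the DMSO libraries after scaling, at 2013, 1269 and 2928 normalized counts against 1762, 1766 and 1980. The means were 1836 ± 125 and 2070 ± 831 (SD, n = 3), with a change of 0.17 in log2 (SE 0.24, adjusted p = 0.612, edgeR) that was -0.17 without SKI-II replicate 3. Per kilobase of exon Hist1h1c stood at 1177 normalized counts with vehicle and 1327 with SKI-II, above every other member, with Hist1h2bc next at 427 in DMSO and Hist1h2al next at 254 in SKI-II. Hist1h1d had 7, 9 and 16 counts against 7, 16 and 16, a log2 fold change of 0.10 (adjusted p = 0.884, edgeR). Hist1h1e, also with a known polyadenylated form, had 4, 15 and 11 counts with vehicle and 8, 4 and 10 with SKI-II and was not tested.

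The linker histone H1f0, which is not clustered and does not depend on replication, is set beside Hist1h1c as another H1 gene with many counts. Its level per kilobase was 2862 normalized counts with vehicle and 1427 with SKI-II. H1f0 fell by 1.00 on the log2 scale (SE 0.21, adjusted p = 0.00421, edgeR), with 5884, 6676 and 5087 normalized counts with vehicle and 2363, 2435 and 3996 with SKI-II. The difference between the changes of the 2 genes was not tested.

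Hist2h3c2 (chromosome 3, 96238108 to 96239127) was the single tested H3 gene. Its counts were 30, 23 and 25 in DMSO and 52, 16 and 12 in SKI-II. SKI-II replicate 1 was the highest of the 6 libraries and the other two were the lowest, and the log2 fold change was -0.03 (SE 0.58, adjusted p = 0.973, edgeR). The summed H3 level had a log2 ratio of -0.50, which was -1.10 without SKI-II replicate 1 and -0.21 without SKI-II replicate 3. The 11 untested H3 genes together had 55.4, 39.2 and 37.6 normalized counts with vehicle and 26.9, 23.9 and 17.9 in SKI-II, with every SKI-II library below every DMSO library.

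The 4 tested H4 genes had fitted values on both sides of 0 and none was called. Hist1h4h (chromosome 13, 23531050 to 23531519) had 8, 11 and 7 counts with vehicle and 23, 14 and 34 with SKI-II, a change of 1.25 in log2 (SE 0.46, adjusted p = 0.0558, edgeR), with an adjusted p of 0.0460 without SKI-II replicate 2 and of 0.0547 to 0.158 in the other alternatives. Hist2h4 (chromosome 3, 96261682 to 96263311), whose transcript sequence is all its own, had 28, 17 and 10 against 36, 35 and 52, a change of 0.99 in log2 (SE 0.40, adjusted p = 0.0754, edgeR), with 0.0461 without DMSO replicate 1 and 0.0568 to 0.197 in the other alternatives. In Hist2h4 all SKI-II libraries lay above all DMSO libraries, and in Hist1h4h 1 SKI-II library fell within the DMSO range after scaling. Both genes passed the filter through the SKI-II libraries, where they are high, with 1 DMSO library past it for Hist1h4h and 2 for Hist2h4. Hist1h4h was not tested when each library had to hold 10 counts. Hist1h4i (66, 16 and 45 counts against 34, 22 and 41) and Hist1h4k (15, 8 and 12 against 11, 11 and 4) had log2 fold changes of -0.50 and -0.54 (adjusted p = 0.397 and 0.454, edgeR). Hist4h4, with a known polyadenylated form, had 2, 0 and 2 counts against 1, 1 and 1. Of the 9 matched members of the list of clustered genes with known polyadenylated forms, 5 were tested, with 2 lower and 0 higher in edgeR, beside the 19.7% and 18.4% of all tested genes. At an unadjusted p below 0.05 there were 3, beside 47.3% of all tested genes, and the untested ones were at 0 or had few counts.

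**Figure D3:**
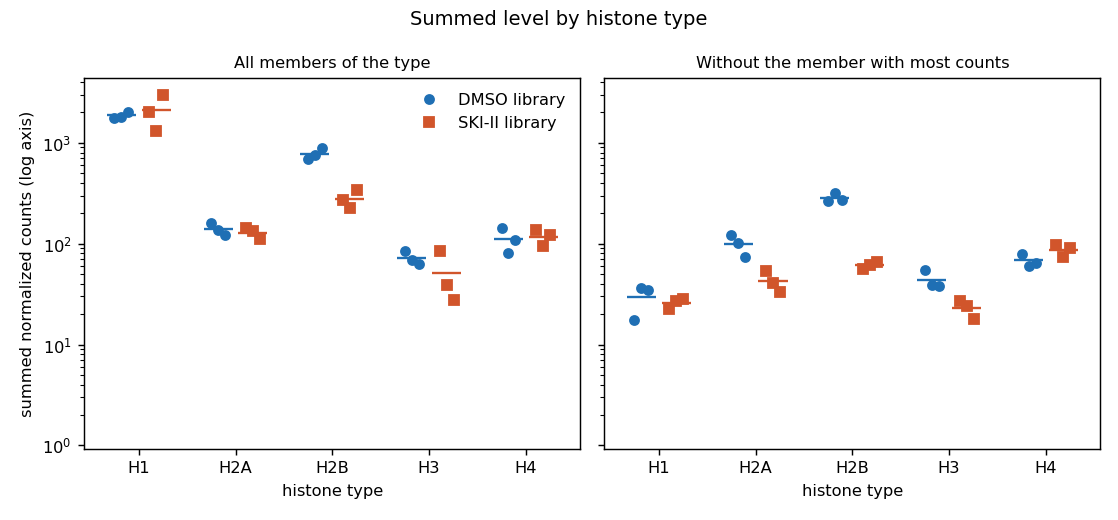
Summed normalized counts (log axis) of all members of each histone type in the 3 DMSO libraries (circles) and the 3 SKI-II libraries (squares), with group means as lines; on the right the member with most counts is left out. H2B sums lie at 685.7 to 893.2 in DMSO and 226.1 to 343.0 in SKI-II, and H4 sums overlap on the left.

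Summed over a type, the H2B genes had the lowest ratio. Their summed level was 685.7, 749.3 and 893.2 normalized counts with vehicle and 268.5, 226.1 and 343.0 in SKI-II. The log2 ratio was -1.48, with 67.45% of the sum from Hist1h2bc. Without Hist1h2bc the log2 ratio was -2.22, with 79.11% of that sum from Hist2h2be. The H1 sum was 1866 ± 130 in DMSO and 2096 ± 832 in SKI-II (SD, n = 3), with 98.6% of it from Hist1h1c. The H4 sum was 111 ± 31.5 in DMSO and 118 ± 20.99 in SKI-II (SD, n = 3), and the groups overlapped. Over all members the sum was 2965 ± 206 and 2672 ± 886, a log2 ratio of -0.15, of which 69.3% was Hist1h1c, and without Hist1h1c, Hist1h2bc and Hist2h2be it was 396 ± 53.9 and 352 ± 56.8. These sums have no test, and they weight a gene by its counts.

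The 54 members with too few counts for the test had 175.8, 141.5 and 134.7 normalized counts together with vehicle and 85.04, 76.3 and 70.9 in SKI-II. Every SKI-II library lay below every DMSO library, with a log2 ratio of -0.96. The log2 ratios by type were -0.40 for H1, -1.36 for H2A, -1.47 for H2B, -0.95 for H3 and -0.65 for H4. Of the 36 of these genes with at least 5 counts over the 6 libraries, 11 (30.6%) had every SKI-II library below every DMSO library and 0 had every one above. Among all 5321 genes under the filter with at least 5 counts these shares were 8.49% and 10.9%. With at least 1 count, 12 of 45 members (26.7%) were below, and none above, against 4.65% and 5.91% of 10686 genes. The limit of 5 counts was set with the data in view, and as copies share sequence their counts are not independent.

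The largest of these low counts belonged to Hist1h2af, an H2A gene with 33, 7 and 14 counts with vehicle and 1, 3 and 3 with SKI-II. The ratio of SKI-II to DMSO was 0.116, with an exact 95% counting interval of 0.0444 to 0.255, and the lowest DMSO library stood above the highest SKI-II library. The interval lay below 1 for 8 further genes, given with their ratios. These were Hist1h2ao (0.155), Hist1h2ap (0), Hist1h2bb (0.0744), Hist1h2bk (0.0993), Hist1h3c (0.223), Hist1h3e (0.158), Hist1h3g (0.386) and Hist1h4d (0.298). With 1 count each in SKI-II the interval ran from 0.00174 to 0.503 for Hist1h2bb and from 0.00226 to 0.716 for Hist1h2bk, and with 3 counts from 0.0296 to 0.545 for Hist1h3e. Hist1h2ap had 3, 5 and 1 counts with vehicle and 0 in each SKI-II library, and its interval reached up to 0.453. Hist1h3a was the single one with an interval above 1, with 0 counts in each DMSO library and 4, 2 and 0 with SKI-II, and its interval began at 1.05. Among the 5321 genes the interval lay below 1 for 9.74% and above 1 for 13.2%. These intervals cover counting error only. When edgeR was run with no filter on low counts, 59 members entered, Hist1h2af, Hist1h2ao and Hist1h2ap were also lower (adjusted p = 0.000111, 0.0286 and 0.0374), and the calls were 6 lower and 1 higher. Of the 22960 genes in that fit 11.1% were lower and 11.4% higher. In Hist1h2af, Hist1h2ao and Hist1h2ap, 20.7%, 7.3% and 7.8% of all stretches of 100 bases occur in no other annotated gene. These genes share stretches of that length with each other, so their calls are not independent.

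**Figure D4:**
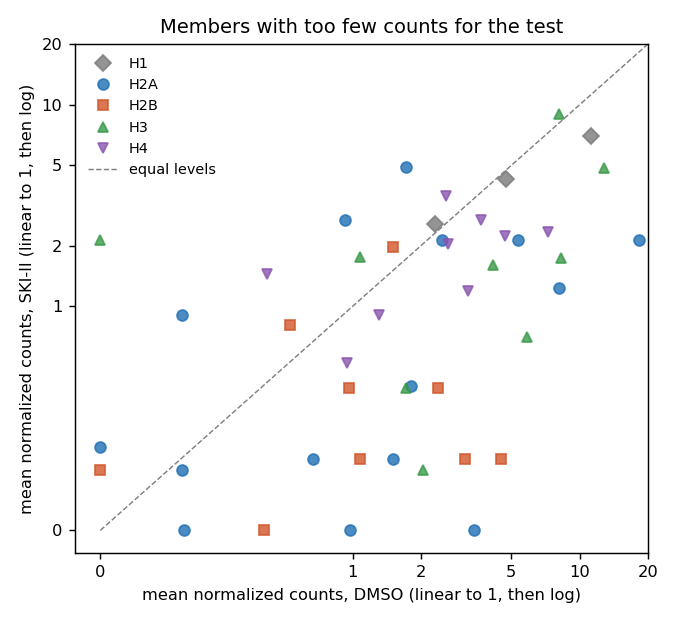
Mean normalized counts in DMSO (x axis) and SKI-II (y axis), both linear to 1 and then logarithmic, of the 45 members that had at least 1 count but too few for the test; symbols give the histone type and the dashed line marks equal levels. Of the 36 with at least 5 counts, 26 had a ratio of SKI-II to DMSO under 1, and Hist1h2af is the point farthest to the right.

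Split by the annotated end of the transcript, the 22 members that end within 100 bases of the stem-loop had 91.3, 70.8 and 59.4 normalized counts together with vehicle and 60.4, 41.0 and 54.6 in SKI-II, a log2 ratio of -0.51 with overlapping groups. Hist1h4h gave 25.3% of that sum, and without it the groups were apart, at 83.5, 56.9 and 52.5 against 34.7, 27.7 and 26.9, a log2 ratio of -1.11. The 22 members that continue for more than 100 bases past it had 2063 ± 115 and 2256 ± 837 (SD, n = 3), with 90.4% of the sum from Hist1h1c. Their log2 ratio was 0.13, and -0.29 without Hist1h1c. The 24 members without a stem-loop in the annotation had 828 ± 108 and 364 ± 43.7 (SD, n = 3), and Hist1h2bc gave 59.7% of that sum.

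RNAs that have no poly(A) tail were counted beside the members as a measure of carry-over past the oligo(dT) beads. Of 17 such RNAs on a list written by hand, 16 matched and 3 were tested, and none was called in edgeR, at an adjusted or an unadjusted p below 0.05. Their summed level was 37.9, 111.2 and 250.5 normalized counts with vehicle and 170.1, 119.3 and 86.4 in SKI-II, with overlapping groups and the extremes both in DMSO. Rn7sk, a small nuclear RNA that holds back transcription elongation, gave 60.4% of it and had a log2 fold change of 0.33 (adjusted p = 0.699, edgeR). Their part in the members' low counts was not tested.

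The genes that supply and handle histones are given from lists written by hand. Of the genes for histone mRNA synthesis and 3′ processing, 27 of 29 matched and all 27 were tested, with 11 lower and 1 higher and a median log2 fold change of -0.33. Of all tested genes 19.7% were lower and 18.4% higher, and these shares and the median of 0.004 are the background for each list here. Lsm11, a protein of the U7 ribonucleoprotein, fell by 1.42 on the log2 scale (SE 0.17, adjusted p = 0.000218, edgeR), from 353.6, 408.1 and 414.9 normalized counts to 151.1, 124.0 and 162.9. Its U7 partner Lsm10 went the other way, from 166.1, 159.2 and 168.3 to 301.0, 307.3 and 264.0 normalized counts, a change of 0.82 in log2 (SE 0.16, adjusted p = 0.00327, edgeR). The groups do not overlap in either gene. Zfp473, the U7-associated zinc finger protein, fell by 1.33 (adjusted p = 0.0370, edgeR) and lost the call with limma-voom and without DMSO replicate 1 or 3 or SKI-II replicate 1 or 2 (adjusted p up to 0.145), and Pou2f1, the octamer factor, fell by 1.12 (adjusted p = 0.000261, edgeR).

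Slbp, the stem-loop binding protein, had 767.3, 429.6 and 449.5 normalized counts with vehicle and 370.4, 378.8 and 303.1 in SKI-II. It fell by 0.65 on the log2 scale (SE 0.23, adjusted p = 0.0461, edgeR), and without DMSO replicate 1, the highest library, the log2 fold change was -0.34 and the adjusted p 0.147. The call was also lost without any 1 SKI-II library, with limma-voom, with library size scaling and with the stricter filter, with adjusted p from 0.0539 to 0.113. Npat, the coactivator of histone gene transcription, had 410 ± 25.5 and 326 ± 35.6 normalized counts (SD, n = 3), a log2 fold change of -0.33 (adjusted p = 0.108, edgeR) with every SKI-II library below every DMSO library. The list had 7 lower genes without SKI-II replicate 2.

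Of the 16 genes on the list of replication-independent histones, 10 were tested, with a median of -0.85. Of these, 7 were lower (19.7% of all tested genes) and 0 higher (18.4%). The name of the list was given by hand, and whether each gene on it is independent of replication was not tested. H2afx on this list shares stretches of 100 bases with clustered H2A genes such as Hist1h2ae. Cenpa, the H3 variant of centromeres, fell by 2.10, H2afx, the H2A variant phosphorylated at DNA breaks, by 1.91, and H2afv by 1.32 on the log2 scale (adjusted p = 5.59e-05, 9.32e-05 and 0.00173, edgeR). H3f3a and H3f3b encode the same H3.3 protein. H3f3a fell from 2532 ± 218 to 1577 ± 287 normalized counts (SD, n = 3), a log2 fold change of -0.68 (adjusted p = 0.00594, edgeR), and H3f3b had 6777 ± 514 and 6500 ± 853, a log2 fold change of -0.06 (adjusted p = 0.764, edgeR). Among the tested ones H2afy2 had the largest opposed value, 0.70 (adjusted p = 0.207, edgeR). H1fx, a linker histone named after its values were seen, was not tested, with 0 counts in each DMSO library and 4, 4 and 3 in SKI-II, and the exact interval of its ratio began at 2.24.

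The list of histone chaperones, which carry new histones to DNA, also holds other chromatin and assembly genes, among them Hmgb2. All 28 were tested, with 16 lower (19.7% of all tested genes) and 0 higher (18.4%) and a median of -0.68. Hmgb2, Asf1b and Hat1 fell by 2.23, 2.03 and 2.01 on the log2 scale (adjusted p = 1.50e-05, 3.44e-05 and 8.70e-06, edgeR). Hat1, the acetyltransferase of newly made H4, went from 2138 ± 165 to 530 ± 44.8 normalized counts (SD, n = 3). The paralog Asf1a had a log2 fold change of 0.06, and Ubn2 of the replication-independent HIRA complex the largest opposed value, 0.43 (adjusted p = 0.229, edgeR). In the list for S phase entry and DNA synthesis, 25 of 30 were lower (19.7% of all tested genes) and 0 higher (18.4%), with a median of -1.77. Mcm5, Ccna2 and Rrm2 were the lowest at -2.80, -2.77 and -2.61, and E2f3 was the single one above 0, at 0.13 (adjusted p = 0.534, edgeR). The lists share Cdk2, Ccne1, Ccne2, Mcm2 and Pcna, and the fall of cell cycle genes was known when they were written, so their counts are a description.

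**Figure D5:**
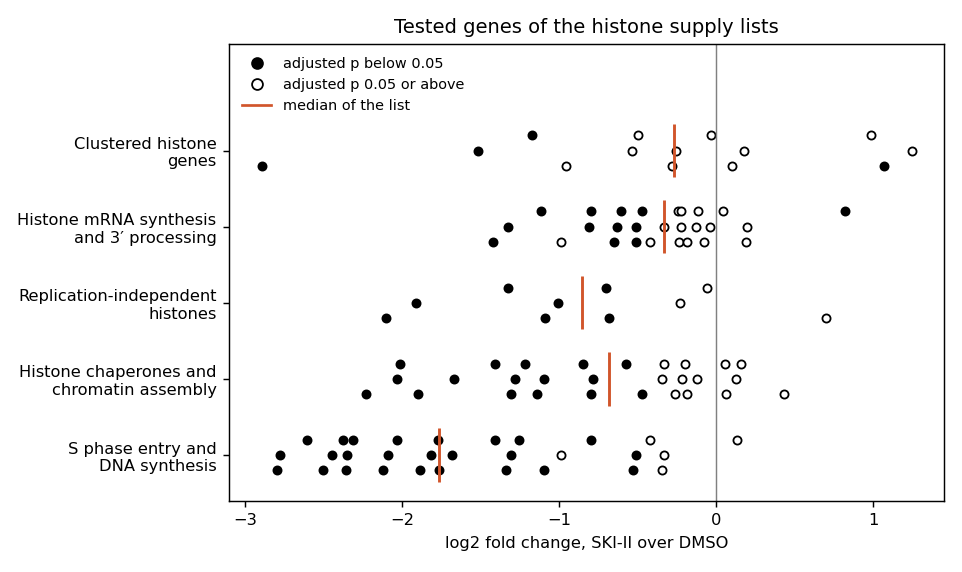
Log2 fold change of SKI-II over DMSO of each tested gene in the clustered histone genes and 4 lists around them; filled points have an adjusted p below 0.05 and vertical lines are list medians. The medians are -0.27, -0.33, -0.85, -0.68 and -1.77 from top to bottom, and the points of the clustered genes lie on both sides of 0.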

How the data were processed

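RNA-seq libraries of RAW264.7 cells, 3 with SKI-II and 3 with DMSO, were grouped by the treatment in the labels. Per the submitters' processing notes, the authors used Trimmomatic 0.36, STAR 2.5.2b, featureCounts of Subread 1.5.2 and DESeq2, and the deposited table used here holds raw counts per Ensembl gene without normalization. For the genome build, annotation, strand and multimapping the settings were not given in the sources used here. GENCODE M21 (GRCm38) placed 48970 of the 49315 genes, and the rest held 0.0391% of the counts.

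Genes were tested in edgeR 4.0.16 (R 4.3.3) by quasi-likelihood over all 6 libraries, with TMM scaling (factors 0.942 to 1.05), the filter by group (minimum count 10, minimum total 15) and Benjamini-Hochberg adjustment over 12274 genes. Normalized counts are scaled to the mean effective library, 16060713 counts. Standard errors were derived from the F statistic. The common coefficient of variation was 17.5%. Ratios of low counts have exact 95% intervals. Pairs of libraries within a group gave chi-square values of 15.4 to 58.1 per degree of freedom, which is more spread than counting error alone gives. Each library was taken as 1 replicate, and these values do not tell whether the cultures were separate. Alternatives were DESeq2 1.42.0, voom of limma 3.58.1, RLE or library size scaling, other filters, a replicate block and each library left out. The scripts were tested on simulated data. Figures were drawn with matplotlib 3.10.9.

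The stem-loop (16 bases, up to 1 mismatch) was sought after the stop codon in GENCODE M21 transcripts. Promoters are those of RefSeq (GRCm38.p6), matched through synonyms and position.

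Each tested member is named. Values per library are given for the 2 members with most normalized counts, the 2 largest and 2 smallest log2 fold changes in each type and the genes with known polyadenylated forms. From each other list come the 3 called genes that changed most and the one most opposed to them, and Slbp and Npat. Genes named beyond this rule were chosen after their values were seen. The members and lists were chosen with earlier results of these data known.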

Additional observations from a re-analysis of the deposited data

How the results depend on the processing

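Hist2h2be and Hist1h2bc kept their calls in all 13 alternatives, with log2 fold changes of -3.01 to -2.73 and -1.39 to -0.97. The filter moved the member counts most. With no filter 59 members were tested and 6 were lower, and with at least 10 counts in every library 8 were tested. With each library left out in turn, 15 to 17 members were tested, 0 to 2 were higher and 2 to 4 lower, and the histone mRNA processing list had 7 to 10 lower genes. The shares of all genes called in these fits are not given here, so these counts have no background to be read against. With no filter, the replication-independent histones and the chaperones had 1 higher gene each, where 0 were higher in the main test. Without its member with most counts, the summed H2A level had a log2 ratio of -1.22 and that of H2B one of -2.22. RLE and library size scaling turned no direction of a member.

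Directions turned only in genes that were not called, when 1 library was left out. Over these fits the log2 fold change ranged from -0.165 to 0.431 for Hist1h1c, from -0.185 to 0.443 for Hist1h1d, from -0.505 to 0.104 for Hist1h2be, from -0.514 to 0.026 for Hist1h2bg and from -1.149 to 0.391 for Hist2h3c2. In the lists it ranged from -0.199 to 0.192 for Casp8ap2, from -0.015 to 0.442 for Cstf2t, from -0.467 to 0.136 for Srrt, from -0.169 to 0.013 for H3f3b, from -0.023 to 0.163 for Asf1a and from -0.031 to 0.246 for Ubn1. The cause was not tested.

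The labels do not say whether libraries with the same replicate number were prepared together. The correlations of the same-numbered libraries' deviations were 0.23, 0.02 and 0.44, and not every library correlated best with its own number. With 3 libraries in a group these deviations depend on each other, so the correlations cannot decide whether the libraries are paired. With the replicate number as a block 1 member was higher and 4 were lower, and the chaperones had 1 higher gene. The share of all genes called in the fit with the block is not given here, so these counts have no background either. At these depths 54 members were below the count that the test needs and have no test of their own in the main comparison. The sums by annotated end without the member with most counts were added after seeing the data.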
